A study of Homo sapiens with 5 samples.

Results

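Immediate early genes outside AP-1 were examined as a group of 10 named genes (EGR1, EGR2, EGR3, MYC, KLF6, KLF10, IER2, IER3, IER5 and ZFP36), taken by gene name from the 58174 genes of the expression table. Expression was measured by RNA sequencing in the established human endometrial cancer cell line Ishikawa, in 3 sh-LINC00958 libraries and 2 sh-NC libraries. The sh-LINC00958 cells carried a lentiviral short hairpin RNA against the long non-coding RNA LINC00958, and the sh-NC cells were the negative control. The labels' treatment protocol, given alike for both groups, describes lentiviral infection and, 72 h later, selection of stably infected cells with puromycin at 2.5 µg/ml, in RPMI medium with fetal bovine serum. The sources used here do not give the number of hairpins or the time of harvest. The labels do not state whether replicate libraries were separate cultures, so the p-values reflect variation among these 5 libraries alone, and that variation may be technical.

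Immediate early genes are transcribed within minutes of a growth factor, stress or handling stimulus, without new protein synthesis, mostly through serum response factor (SRF) with its ternary complex partners and the ERK kinase cascade. Their mRNAs are often short-lived, and many carry AU-rich elements in the 3′ untranslated region that recruit decay proteins such as ZFP36. The members divide by role into the EGR zinc finger transcription factors, the proto-oncogene MYC, the Krüppel-like factors KLF6 and KLF10, the IER proteins, and ZFP36, the mRNA decay factor. In endometrial epithelium several of these genes respond to steroid hormones and growth factors.

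Values are TPM, a unit that scales each gene for length and each library to the same total, so levels can be compared between genes. The sequencing depth is unknown. Of the 10 members 7 had a mean of at least 1 TPM over the 5 libraries and entered the test, which was limma on log2(TPM + 1) with Benjamini-Hochberg adjustment over 17049 genes and a threshold of 0.05. EGR1, EGR2 and EGR3 lay under that filter. LINC00958 measured 67.2, 67.1 and 58.4 TPM in sh-LINC00958 and 119.3 and 137.4 TPM in sh-NC, and its log2 fold change was -0.99 (SE 0.106, limma adjusted p = 0.0119). Between 27896 and 29411 genes were above 0 per library, and mitochondrial genes took 12.9% to 14.97% of TPM. Among markers fixed for the line, EPCAM, KRT8, KRT18, KRT19, CDH1, PAX8 and SOX17 were each above 50 TPM in every library, while the estrogen receptor gene ESR1 was listed at 0 in 4 libraries and at 0.0149 TPM in sh-LINC00958 replicate 3. The keratin gene KRT18 was called higher (log2 fold change 0.44, limma adjusted p = 0.0211), also with the trend of GC content and gene length removed (0.28, limma adjusted p = 0.0457), and with that removal PAX8 (-0.35) and SOX17 (-0.46) were called lower.

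IER3 was the only member that passed the test, and it was higher in sh-LINC00958. Thus 1 of 7 tested members was called, 1 higher and 0 lower, set against 9.8% of all tested genes called in either direction, 4.12% called higher and 5.68% called lower, so the members' share was not read as a group effect. At an unadjusted p under 0.05 limma gave 2 members, IER3 and KLF10, of the 7, while 30.7% of all tested genes reached it. The median log2 fold change of the 7 was 0.15, beside 0.0014 over all tested genes, and it was -0.01 with the GC and length trend removed. IER3, IER5 and KLF10 had groups that did not overlap, and 49.9% of all tested genes did so too.

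**Figure D1:**
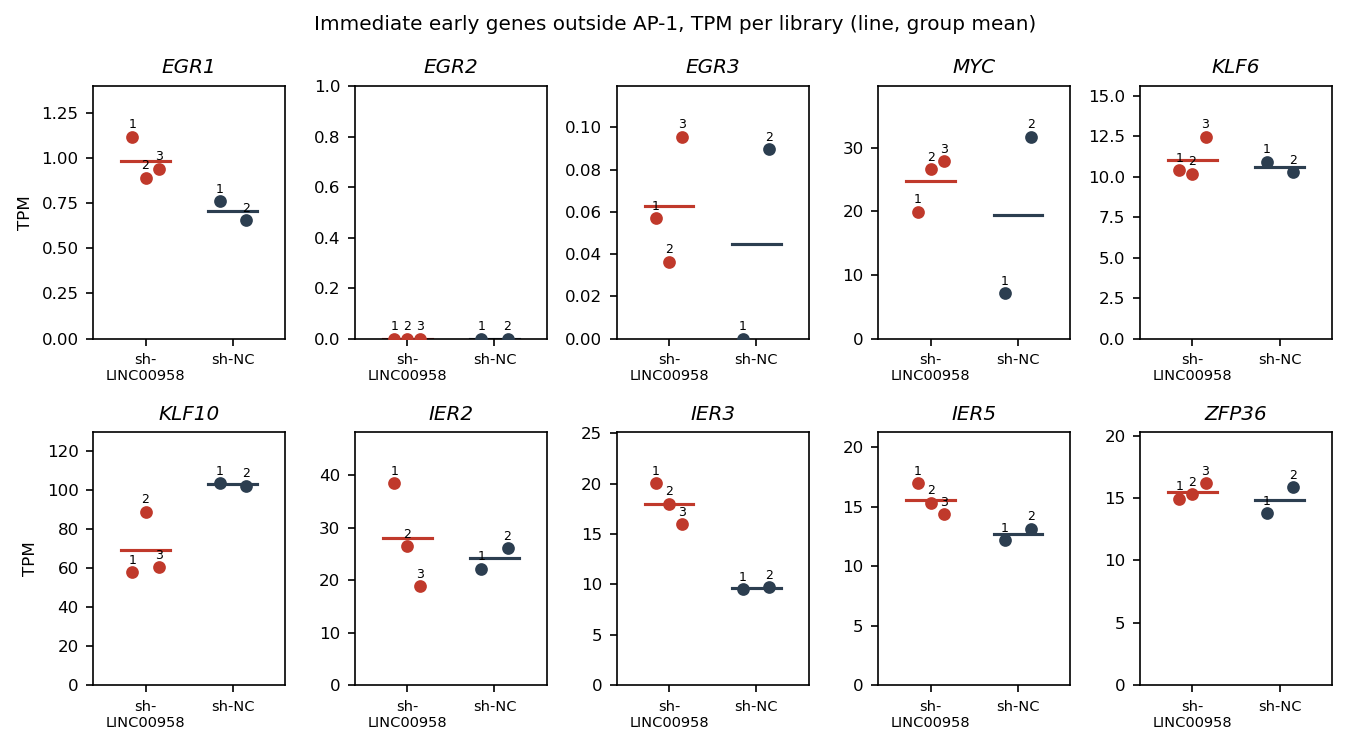
TPM of each member in every library, with sh-LINC00958 to the left of sh-NC in each panel, points numbered by replicate and lines at the group means. IER3 lay at 16.0 to 20.1 TPM in sh-LINC00958 and at 9.50 and 9.70 TPM in sh-NC, the sh-NC values of MYC lay far apart, and EGR2 was listed at 0 throughout.

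In order of level in sh-LINC00958, KLF10 stood highest at a mean of 69.1 TPM, followed by IER2 (27.9), MYC (24.8), IER3 (18.02), IER5 (15.6), ZFP36 (15.5), KLF6 (11.0), EGR1 (0.985), EGR3 (0.0630) and EGR2 (0). From IER2 down to ZFP36 each neighbouring pair overlapped in range over the 3 libraries, so the order within each such pair is not resolved. KLF10 stood clear of IER2, and KLF6 clear of ZFP36 and EGR1. In sh-NC the order was KLF10 (103.0 TPM), IER2 (24.1), MYC (19.4), ZFP36 (14.8), IER5 (12.7), KLF6 (10.6), IER3 (9.60), EGR1 (0.710), EGR3 (0.0448) and EGR2 (0). IER3 thus stood above IER5, ZFP36 and KLF6 in mean level in sh-LINC00958 and below all of them in sh-NC, where its values lay below both KLF6 values. The place of MYC in sh-NC is not resolved, since its values of 7.12 and 31.7 TPM enclosed those of IER2, ZFP36, IER5, KLF6 and IER3. Among all tested genes the 7 members ranged from the 42.1 percentile of mean level (KLF6) to the 87.2 percentile (KLF10).

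The EGR transcription factors bind GC-rich promoter elements and are the classical read-out of SRF and ERK activity. EGR1 had 1.12, 0.892 and 0.943 TPM in sh-LINC00958 and 0.763 and 0.657 TPM in sh-NC. Every sh-LINC00958 value was above both sh-NC values, at means of 0.985 ± 0.120 TPM (SD, n = 3) and 0.710 ± 0.0749 TPM (SD, n = 2), but the level was close to 1 TPM in all libraries. With no filter on low values the EGR1 log2 fold change was 0.21 (95% interval -0.13 to 0.56, limma adjusted p = 0.492 over 35238 genes, of which 1.35% were called). With a pseudocount of 0.1 and a filter at 0.5 TPM, chosen after these values were seen, it was 0.42 (95% interval -0.37 to 1.21, limma adjusted p = 0.450). With no filter and the GC and length trend removed, also chosen after these values were seen, it was 0.14 (95% interval -0.23 to 0.51, limma adjusted p = 0.645). EGR3, a relative induced along with EGR1 in many cells, had 0.0569, 0.0364 and 0.0957 TPM in sh-LINC00958 and 0 and 0.0896 TPM in sh-NC, and the groups overlapped. EGR2, known for its part in hindbrain and Schwann cell development, was listed at 0 in all 5 libraries. EGR1, EGR2 and EGR3 mRNA was thus low or listed at 0 in both groups.

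The promoter of EGR1 is shown because it carries the elements through which SRF acts, and that of IER2 for contrast. These are the 250 bases before the RefSeq start (GRCh38.p14, plus strand for both), chr5:138465229-138465478 for EGR1 and chr19:13150161-13150410 for IER2, with CArG boxes (the SRF binding motif) and GC boxes (GGGCGG), searched on both strands, in capitals.
EGR1: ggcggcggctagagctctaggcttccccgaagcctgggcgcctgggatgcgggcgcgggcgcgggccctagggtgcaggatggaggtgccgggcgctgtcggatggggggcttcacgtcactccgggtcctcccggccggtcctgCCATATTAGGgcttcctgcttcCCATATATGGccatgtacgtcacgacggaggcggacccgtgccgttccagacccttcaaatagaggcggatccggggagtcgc
IER2: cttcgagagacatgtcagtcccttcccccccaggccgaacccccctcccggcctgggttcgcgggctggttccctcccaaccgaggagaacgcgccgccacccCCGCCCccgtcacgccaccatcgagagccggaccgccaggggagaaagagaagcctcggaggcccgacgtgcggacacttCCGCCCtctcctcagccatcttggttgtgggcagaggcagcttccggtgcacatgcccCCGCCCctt
EGR1 held CArG boxes at -105 to -96 and at -83 to -74 relative to the start, and IER2 held 3 GC boxes and no CArG box in this window. Of 35116 RefSeq promoter windows of the same length 1.16% held a CArG box and 42.6% a GC box. Promoter windows were matched for 6 members (EGR1, EGR2, IER2, IER5, KLF6 and ZFP36), of which 1 held a CArG box and 4 a GC box. These are matches of letters and not measured binding sites.

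MYC, the basic helix-loop-helix transcription factor that drives growth and ribosome synthesis, had the widest spread of the tested members. It measured 19.9, 26.6 and 27.8 TPM in sh-LINC00958 and 7.12 and 31.7 TPM in sh-NC. The sh-LINC00958 values lay between the sh-NC values, which differed 4.46-fold. A gap that large between the sh-NC libraries was found for 0.24% of 12096 genes with a mean of at least 5 TPM. The MYC log2 fold change was 0.65 (95% interval -0.72 to 2.01, limma adjusted p = 0.473), and leaving out sh-NC replicate 1 gave -0.36 where leaving out sh-NC replicate 2 gave 1.65, so the direction of MYC turned on which control library was kept. Among 22 tested MYC target genes 10 were lower in sh-NC replicate 1 than in sh-NC replicate 2, with a median log2 difference of 0.01, against 58.3% and -0.04 over all tested genes.

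Krüppel-like factors bind GC-rich and CACCC elements. KLF10, also known as a TGF-beta inducible early gene and a repressor of transcription, measured 57.8, 88.9 and 60.6 TPM in sh-LINC00958 and 103.7 and 102.3 TPM in sh-NC. All 3 sh-LINC00958 values were lower than the sh-NC values, with replicate 2 the nearest to them. The log2 fold change of KLF10 was -0.60 (SE 0.191, 95% interval -1.06 to -0.13, limma adjusted p = 0.102), which did not pass. Without sh-LINC00958 replicate 2 the KLF10 log2 fold change was -0.79 and passed (limma adjusted p = 0.0150). That fit leaves out the value nearest to sh-NC. It called 904 of all tested genes higher and 1486 lower, against 702 and 969 with all libraries. KLF10 did not pass in the other 16 alternatives. KLF6, a tumour suppressor of the same family, measured 10.4, 10.2 and 12.5 TPM in sh-LINC00958 and 10.9 and 10.3 TPM in sh-NC. Its groups overlapped, at 0.05 on the log2 scale (95% interval -0.27 to 0.36, limma adjusted p = 0.843).

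The IER genes share a name for the speed of their induction. IER2 and IER5 encode related nuclear proteins, while IER3 is not of their family. IER3, a stress-inducible regulator of cell survival and ERK signalling, measured 20.1, 18.02 and 16.0 TPM in sh-LINC00958 and 9.50 and 9.70 TPM in sh-NC. Every sh-LINC00958 value was above both sh-NC values, and the means of 18.02 ± 2.04 TPM (SD, n = 3) and 9.60 ± 0.143 TPM (SD, n = 2) were a 1.88-fold difference. The log2 fold change of IER3 was 0.84 (SE 0.127, 95% interval 0.53 to 1.15, limma adjusted p = 0.0228), and an exact two-sided permutation test over libraries gave p = 0.1, the smallest that 3 against 2 allows. The IER3 log2 fold change stayed between 0.76 and 0.92 when any library was left out. The call was lost when sh-LINC00958 replicate 1 was dropped (limma adjusted p = 0.0843), and likewise for either sh-NC library (limma adjusted p = 0.124 for replicate 1 and 0.131 for replicate 2). It also missed the threshold with no filter on low values (limma adjusted p = 0.0556, log2 fold change 0.84).

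Over all tested genes, median fold changes rose from the lowest to the highest bin of transcript GC content. In the highest of 4 bins of transcript GC content (56.6% to 86.4%), which held IER3, MYC, IER2 and ZFP36, the median log2 fold change of 4250 genes was 0.18, and in the lowest bin (23.1% to 43.8%), which held no member, it was -0.28. With the GC and length trend removed from each library the IER3 log2 fold change was 0.61 and its limma adjusted p 0.0538, 0 members were called in either direction, and 2.65% of all tested genes were called higher and 3.03% lower. The part of GC content in the IER3 difference was not tested. IER3 shares 359 exonic bases with an antisense gene (ENSG00000272273, IER3-AS1 in GENCODE 29). That gene measured 4.87, 4.85 and 5.31 TPM in sh-LINC00958 and 3.21 and 3.66 TPM in sh-NC (log2 fold change 0.44, limma adjusted p = 0.0908). The sources used here do not say whether counting used strand, so reads within the shared bases may be counted for either IER3 or its antisense partner.

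**Figure D2:**
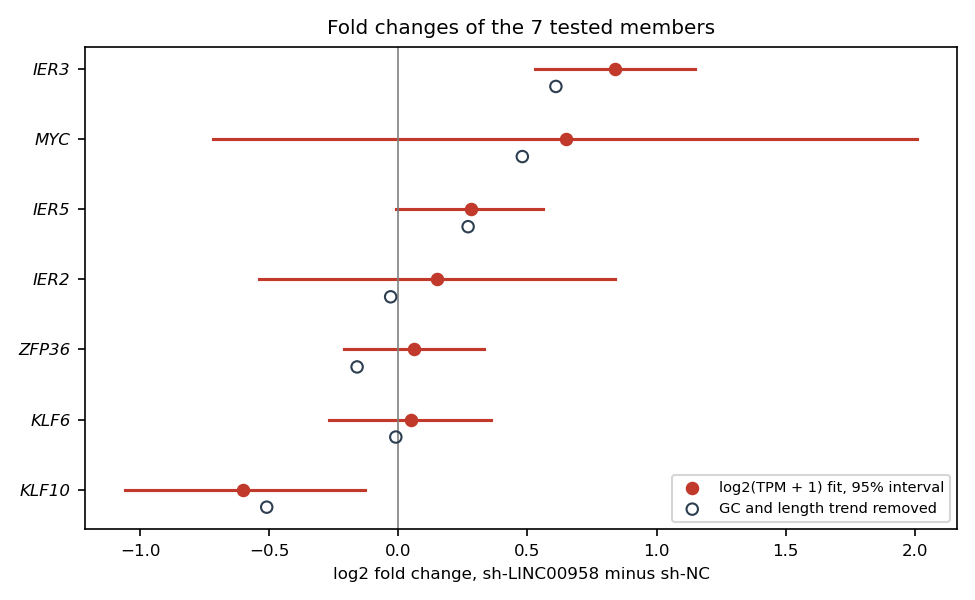
Log2 fold changes (sh-LINC00958 minus sh-NC, horizontal axis) of the 7 tested members with 95% intervals (filled points, lines), and the same with the GC and length trend removed (open points). The IER3 interval of 0.53 to 1.15 and the KLF10 interval of -1.06 to -0.13 leave out 0, and the MYC interval, -0.72 to 2.01, is the widest.

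IER2, a nuclear regulator of transcription, measured 38.5, 26.4 and 18.9 TPM in sh-LINC00958 and 22.15 and 26.05 TPM in sh-NC. The sh-LINC00958 libraries enclosed the sh-NC values and spread 2.04-fold among themselves, a range equalled by 3.29% of genes with a mean of at least 5 TPM. The IER2 log2 fold change was 0.15 (95% interval -0.54 to 0.84, limma adjusted p = 0.750) and -0.10 without sh-LINC00958 replicate 1. IER2 shares 946 exonic bases with an antisense gene (AC011446.2 in the table), so reads within those bases carry the same limit as for IER3. IER5, which binds the phosphatase PP2A and modulates the heat shock factor HSF1, measured 17.0, 15.4 and 14.4 TPM in sh-LINC00958 and 12.2 and 13.2 TPM in sh-NC. Its groups did not overlap, yet its log2 fold change of 0.28 did not pass (95% interval -0.01 to 0.56, limma adjusted p = 0.175).

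**Figure D3:**
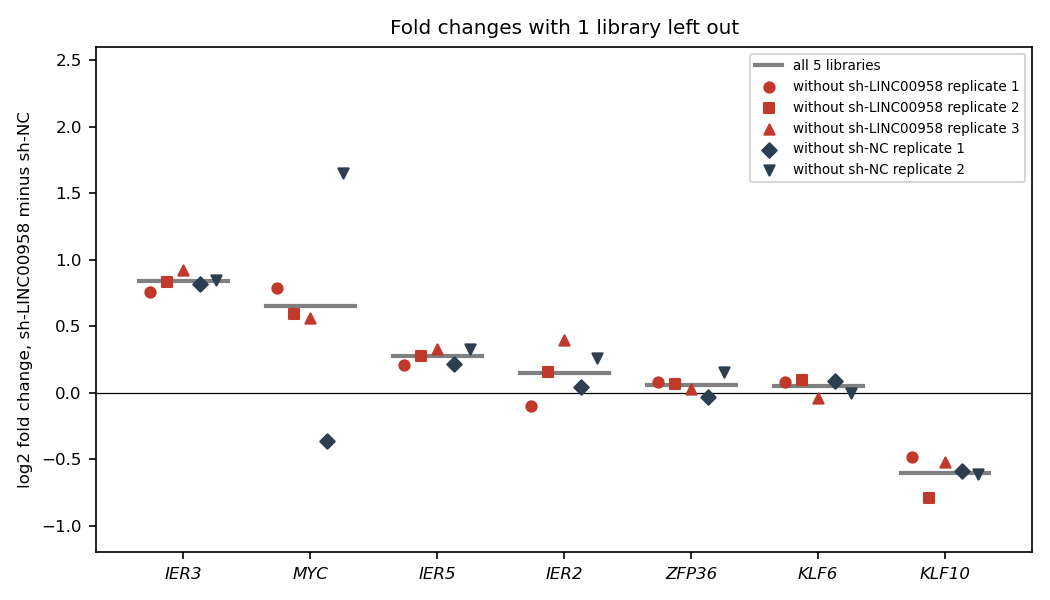
Log2 fold changes of the 7 tested members (sh-LINC00958 minus sh-NC, vertical axis) with all libraries (grey bars) and with 1 library left out (points, by library). IER3 stayed between 0.76 and 0.92 and KLF10 between -0.79 and -0.48, while MYC was -0.36 without sh-NC replicate 1 and 1.65 with replicate 2 left out instead.

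ZFP36 (tristetraprolin) binds AU-rich elements and recruits the CCR4-NOT deadenylase, and its own mRNA is among those it can bind. ZFP36 measured 14.95, 15.3 and 16.2 TPM in sh-LINC00958 and 13.8 and 15.9 TPM in sh-NC. The groups overlapped, and the log2 fold change was 0.06 (95% interval -0.21 to 0.33, limma adjusted p = 0.745). The interval leaves out a 2-fold change in either direction for ZFP36, KLF6, IER2 and IER5. That of MYC leaves out a 2-fold fall but not a 2-fold rise.

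Members differed in how many AU-rich pentamers (ATTTA in DNA letters, sense strand) their 3′ untranslated regions hold. IER3 held 6 in 737 nt, MYC 4 in 476 nt and ZFP36 5 in 713 nt, the highest densities of the group at 8.14, 8.40 and 7.01 per kb. Among 3′ untranslated regions within 20% of the same length, 3.07% held at least as many as that of IER3, 4.59% as that of MYC and 5.80% as that of ZFP36. IER5 held 10 in 3013 nt, which 26% of regions of like length matched, and it was the member with most copies of the nonamer TTATTTATT, at 3, next to 1 in ZFP36 and none in the other 8. Across 19006 genes, with regions of all lengths, 65.4% held the pentamer and 7.84% the nonamer. Among regions of like length the nonamer share was 14.1% for IER5 and 4.96% for ZFP36. IER2 held no pentamer, and EGR1 held 1. The densest 30-base stretch of each of IER3 (chr6:30743648-30743677, minus strand), ZFP36 (chr19:39409188-39409217, plus strand) and IER5 (chr1:181092448-181092477, plus strand) is shown on GRCh38, from GENCODE 29 transcripts, with the pentamers in capitals, since these are the letters that ZFP36 family proteins recognise.
IER3: taattaatATTTAtatgtATTTAtgtacgt
ZFP36: cctttATTTAtgacgactttATTTAttcta
IER5: ttcctttATTTATTTATTTATTTAattata

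Most members are annotated over less of the genome than the median tested protein-coding gene, and EGR2 over more. IER3 spans 1356 bases of chromosome 6 (30743199 to 30744554, minus strand, GRCh38). Only 0.702% of 12687 tested protein-coding genes span no more than that, and their median span was 31762 bases. ZFP36 spans 2600, EGR1 3826, IER5 4188, IER2 4494, EGR3 5644, MYC 6001, KLF10 7124 and KLF6 9286 bases. EGR2 spans 107905 bases, at least as many as 83.4% of those genes. IER2 and IER5 have 1 exon in their principal transcript. The GC content of transcripts was between 46.2% (KLF10) and 64.0% (IER2), against a median of 50.1%. KLF10, the member of lowest GC content, had a log2 fold change of -0.51 with the GC and length trend removed.

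Of 38 other immediate early genes listed, which include the bZIP factor genes ATF3 and MAFF, 30 were tested, 3 rose, 2 fell and 25 did not pass. Their median log2 fold change was 0.12, and 0.03 with the GC and length trend removed. Beside the counts of this list and of those that follow stand 4.12% of all tested genes called higher and 5.68% called lower. CYR61, a secreted matricellular SRF and YAP target, was 130.0 ± 13.7 TPM in sh-LINC00958 and 59.4 ± 2.24 TPM in sh-NC (SD, n = 3 and 2; log2 fold change 1.11, limma adjusted p = 0.00890). PPP1R15A, the stress-induced phosphatase subunit GADD34 (0.66), and RHOB, a small GTPase (0.47), rose, and TIPARP, a mono-ADP-ribosyltransferase (-0.80), and HES1, a Notch-responsive repressor (-0.34), fell. The orphan nuclear receptor gene NR4A1, a classical companion of EGR1 and chosen after its values were seen, had 4.17, 4.50 and 4.53 TPM in sh-LINC00958 and 3.93 and 3.42 TPM in sh-NC (limma adjusted p = 0.346). With the GC and length trend removed 4 of these 5 calls held and that of RHOB did not.

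Among 24 genes of SRF, its cofactors and the ERK cascade, all tested, 3 rose and 1 fell. SRF itself measured 32.9, 32.5 and 33.1 TPM in sh-LINC00958 and 23.6 and 21.4 TPM in sh-NC, a log2 fold change of 0.53 (SE 0.0903, limma adjusted p = 0.0280) with no overlap of the groups. MAPK3, which encodes ERK1 (0.48), and RPS6KA4, which encodes the ERK- and p38-activated kinase MSK2 (0.47), rose as well. ELK3, a ternary complex factor that can repress SRF targets (-0.62), fell. Once GC content and length were corrected for, the SRF log2 fold change was 0.36 and SRF, MAPK3 and RPS6KA4 were not called, while ELK3 (-0.56, limma adjusted p = 0.0327) was.

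Of 22 listed close relatives of the members, 16 were tested, 0 rose, 2 fell and 14 did not pass, with a median log2 fold change of -0.15. ZFP36L2, a paralogue of ZFP36 with the same RNA-binding fingers, measured 24.4, 24.7 and 22.7 TPM in sh-LINC00958 and 39.5 and 43.4 TPM in sh-NC. The log2 fold change of ZFP36L2 was -0.77 (SE 0.0948, limma adjusted p = 0.0155), and -0.87 after the GC and length trend was removed (limma adjusted p = 0.00931). ZFP36L1, the other paralogue, chosen after its values were seen, had 31.9, 42.0 and 32.9 TPM in sh-LINC00958 and 39.4 and 38.1 TPM in sh-NC and did not pass (log2 fold change -0.13, limma adjusted p = 0.573). KLF5, an epithelial growth factor-responsive family member, was 42.7 ± 2.01 TPM in sh-LINC00958 and 59.2 ± 0.744 TPM in sh-NC (log2 fold change -0.46, limma adjusted p = 0.0307), and after removal of the trend it was -0.38 and not called (limma adjusted p = 0.0539). NAB1, a co-repressor of EGR proteins, had a log2 fold change of -0.64 and did not pass (limma adjusted p = 0.0722).

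MYC partners, antagonists and turnover genes gave no call among 16 tested in limma. At an unadjusted p under 0.05 limma gave 4 of the 16, while 30.7% of all tested genes reached it. The smallest p-values were those of MXD4, a MYC antagonist (log2 fold change 0.37, limma adjusted p = 0.0685), the ubiquitin ligase gene HUWE1 (0.23, 0.117) and AURKA, whose kinase can stabilise MYC proteins (-0.68, 0.120). Of 22 tested MYC target genes 2 rose and 2 fell, with a median log2 fold change of 0.08. NOLC1, a nucleolar phosphoprotein, was 116.1 ± 17.4 TPM in sh-LINC00958 and 57.4 ± 1.87 TPM in sh-NC (log2 fold change 0.99, limma adjusted p = 0.0178), and PES1, a ribosome assembly factor, rose too (0.38). NCL, which encodes nucleolin (-0.43), and NOP58, a box C/D snoRNP core protein (-0.43), fell. NOLC1 and NCL were still called with the correction for GC content and length, and PES1 and NOP58 were not.

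Of 22 tested genes of AU-rich element decay 0 rose and 3 fell, where 5.68% of all tested genes were called lower. The median log2 fold change of the list was -0.23, and -0.12 with the GC and length trend removed. TIA1, an AU-rich element binding protein of stress granules, was 75.8 ± 3.71 TPM in sh-LINC00958 and 115.9 ± 10.9 TPM in sh-NC (log2 fold change -0.60, limma adjusted p = 0.0235). The deadenylase genes CNOT6 (-0.42) and CNOT6L (-0.84) fell, and after removal of the trend CNOT6 alone was still called. Of 18 mRNAs listed as ZFP36 targets, a list that holds IER3 and MYC themselves, 14 were tested, 2 rose (IER3 and the urokinase gene PLAU, 1.69) and 1 fell (CCND1, which encodes cyclin D1, -0.74). CXCL1, a chemokine gene named after its values were seen, missed the threshold narrowly (log2 fold change 0.65, limma adjusted p = 0.0503).

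**Figure D4:**
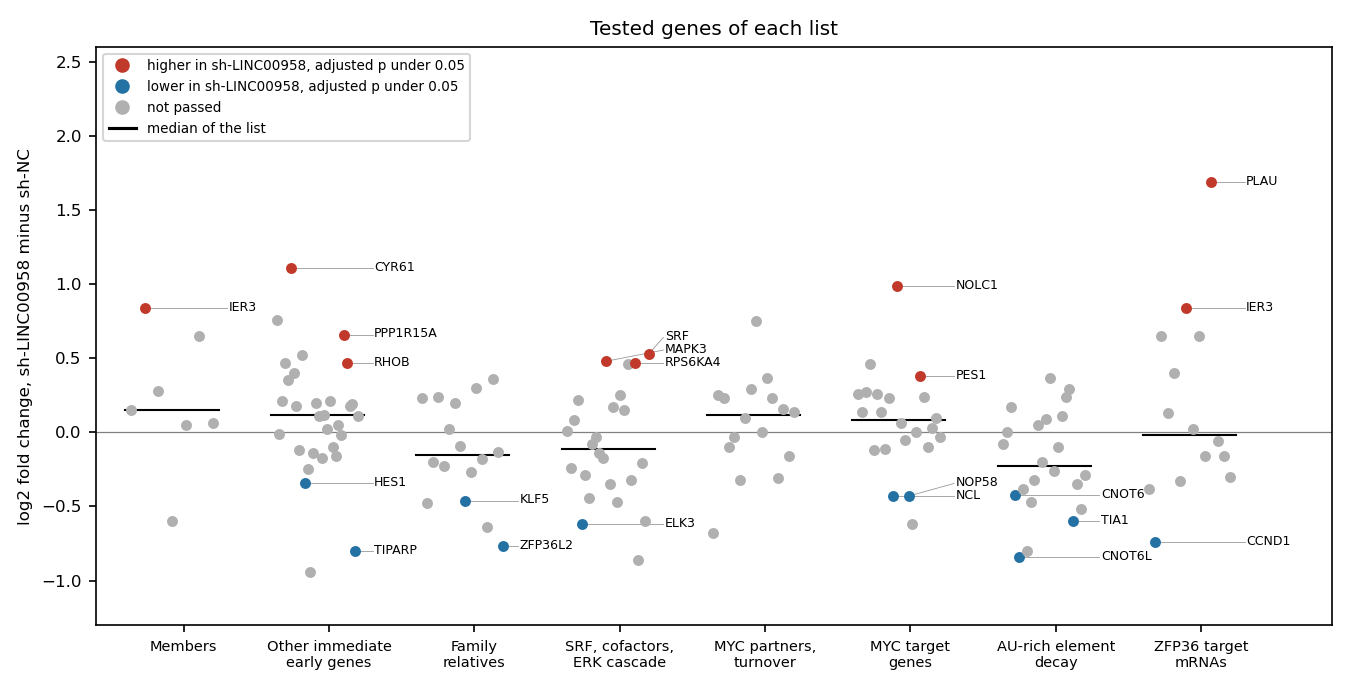
Log2 fold changes (sh-LINC00958 minus sh-NC, vertical axis) of every tested gene of the members and of 7 related lists, with genes past the threshold in colour and named, and list medians as black lines. The AU-rich element decay list has the lowest median, -0.23 (-0.12 with the GC and length trend removed, where that of the family relatives is -0.13), and each list but that of MYC partners holds at least 1 called gene.

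The calls of the 20 called genes of these lists that are not members turned on single libraries, as did those of all tested genes. When sh-LINC00958 replicate 1 was dropped, 0 of the 20 were called, and of all tested genes 36 were called higher and 51 lower. Without sh-LINC00958 replicate 3 CCND1, CNOT6L, CYR61 and NOLC1 were called, as was IER3, and of all tested genes 112 were called higher and 145 lower. Without sh-LINC00958 replicate 2 18 of the 20 were called, and of all tested genes 904 were called higher and 1486 lower. Marker genes of other cell types were low throughout. Among 8 fibroblast markers only COL1A1 was tested, with DCN at 0, and their summed level was 5.59 to 6.23 TPM in sh-LINC00958 and 5.28 to 5.41 TPM in sh-NC. The 6 blood cell markers summed to 3.00 to 3.66 TPM in sh-LINC00958 and 1.73 to 2.67 TPM in sh-NC, most of it CD68 in every library, with CD3E and HBB at 0. The 6 endothelial markers summed to 4.55 to 6.28 TPM in sh-LINC00958 and 6.93 to 7.50 TPM in sh-NC, with KDR at 0. Their part in the results was not tested.

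The genes whose values over the 5 libraries lay closest to those of IER3, by the root mean square difference of log2(TPM + 1) centred on each gene's mean among 12095 genes with a mean of at least 5 TPM, were PFKL (0.031), SEMA4B (0.054), IL6R (0.059), COPE (0.062) and DEXI (0.070). PFKL measured 89.5, 84.7 and 71.98 TPM in sh-LINC00958 and 43.6 and 44.5 TPM in sh-NC, with the same order of libraries as IER3 in sh-LINC00958. The closest to EGR1 were ACSS2 (0.012), EPS15L1 (0.013), GMEB1 (0.014), TIGD6 (0.019) and MSRB1 (0.021). EGR1 lay close to 1 TPM, where the added 1 in log2(TPM + 1) shrinks differences. Its sh-LINC00958 mean was 1.387 times its sh-NC mean, against 1.159 (GMEB1) to 1.193 (TIGD6) for these 5 genes. With so few libraries such nearness is a description only.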

How the data were processed

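The 5 RNA sequencing libraries were grouped by their sample titles. The authors deposited 1 table of TPM per gene and library. Per the submitters' processing notes, StringTie 1.3.3b, HISAT2 2.0, Trimmomatic 0.36 and FastQC 0.11.2 were used, and the build was GRCh38. Neither the annotation release nor the strand setting is given in the sources used here. A TPM depends on all other transcripts of the same library and carries no depth, so no counting interval was computed.

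Genes with a mean of at least 1 TPM over the 5 libraries (17049) were tested on log2(TPM + 1) by limma (version 3.58.1, R 4.3.3; linear fit, moderated with a mean-variance trend). Tests were two-sided and p-values were Benjamini-Hochberg adjusted over these genes. The fold changes understate the change of low genes. Gene positions, lengths, GC content and 3′ untranslated regions (of the principal transcript) came from GENCODE 29, which held 57836 of the 58174 gene IDs, and promoters from RefSeq (GRCh38.p14). The GC and length trend was a spline with 5 degrees of freedom for each, fitted to every library's deviation from the gene mean. Alternatives covered the pseudocount, the filter, scaling, the variance model, the GC and length trend, the replicate number as a block and each library left out. The members and lists were chosen with earlier results of these data known. Named genes are the members, LINC00958, the called genes and the 3 of smallest p of each list, and the 5 nearest to IER3 and EGR1, with others marked where named. The result for 1 marker gene is not reported here.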

Additional observations from a re-analysis of the deposited data

How the results depend on the processing

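The IER3 log2 fold change was between 0.61 and 0.92 in all 17 alternatives and passed in 9 of them, those of pseudocount, scaling, variance model and higher filter among them. The count of 1 member called higher became 0 with no filter (also with the GC and length trend removed) and with that trend removed, and ranged from 0 to 1 with 1 library left out, while the count called lower ranged from 0 to 1. All genes called higher and lower numbered 702 and 969, against 207 and 269 with no filter, 371 and 518 without the variance trend, 451 and 517 with the GC and length trend removed, and 267 and 364 with that removal and no filter, and they ranged from 10 to 904 and from 6 to 1486 with 1 library left out. The LINC00958 log2 fold change ranged from -1.09 to -0.89 with 1 library left out. Where a lone sh-NC library was left, it is assumed to vary like the other group. LINC00958 passed in 12 of the 17 alternatives. It missed the threshold without sh-LINC00958 replicate 1 (limma adjusted p = 0.0545). With the replicate block it also missed it (limma adjusted p = 0.104, and 0.122 with the GC and length trend removed as well). Among the alternatives, the fit with a filter at 0.5 TPM and that with no filter and the GC and length trend removed were added after the data were seen. IER3 passed in the former (limma adjusted p = 0.0255) and not in the latter (limma adjusted p = 0.0634).

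Replicate numbers 1 and 2 occur in both groups, but the labels tie them to nothing shared, and the correlation of deviations from the group means was 0.001 for number 1 and 0.050 for number 2. With the replicate block, alone and with the GC and length trend removed, 0 and 0 genes were called higher, 2 and 1 lower and 0 members, at a LINC00958 log2 fold change of -0.92 and -0.95. That fit has 1 residual degree of freedom. IER3 then had 0.92 and 0.71.

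Members that turned sign were not called in any fit. MYC ranged from -0.36 (without sh-NC replicate 1) to 1.65 with 1 library left out. KLF6 was -0.01 with the GC and length trend removed, -0.04 with the replicate block, -0.11 with both, and -0.04 (without sh-LINC00958 replicate 3) to 0.10 with 1 library left out. IER2 was -0.03 with that removal and ranged from -0.10 (without sh-LINC00958 replicate 1) to 0.40. ZFP36 was -0.16 with that removal, -0.17 with the replicate block as well, -0.08 with no filter as well, and -0.03 (without sh-NC replicate 1) to 0.16 with 1 library left out. EGR3, 0.03 with no filter, was -0.07 with the trend removed. The causes were not tested. Depth is unknown, so what it limits for EGR1, EGR2 and EGR3 cannot be given.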
